A study of Mus musculus with 35 samples.

Results

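The transcripts described here are 10 marker genes of fat cells measured in mouse quadriceps muscle: Adipoq, Plin1, Cidec, Retn, Lep, Fabp4, Pck1, Pparg, Cidea and Agpat2. Each gene was taken from the expression table as the row annotated with exactly its symbol, and where a gene had several rows the one with the highest mean would have been used. All 10 were found, with 1 row each, among 19938 genes. Total RNA from quadriceps of 2-month-old female mice had been hybridised to 35 Affymetrix whole-transcript arrays, 1 per mouse. The study asked how the muscle transcriptome responds to a soluble activin type IIB receptor, and whether loss of myostatin gives a like response.

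The 4 classes were control mice, myostatin-null (Mstn-null) mice, mice given 1 dose of ActRIIB-Fc and mice given 4 doses of it. The product of Mstn, myostatin, is secreted by muscle and restrains its growth, and ActRIIB-Fc is the ligand-binding part of the activin type IIB receptor joined to an antibody Fc tail, which captures myostatin and related ligands. Experiment 1 had 3 arrays in each class. Experiment 2 was an independent follow-up with 8 Mstn-null arrays and 5 arrays in each other class. The labels give neither the strain nor what the controls received, nor the time between the last dose and dissection, and they describe samples that share a group as biological replicates. Mstn itself was lower in Mstn-null than in control muscle by a log2 difference of -2.78 in experiment 2 (limma adjusted p = 1.887e-10). In experiment 1 the difference was -1.21 and missed the threshold (limma adjusted p = 0.114).

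White fat cells store triglyceride in 1 large droplet, release its fatty acids on demand and secrete hormones that act on muscle, liver and brain. Skeletal muscle holds few fat cells, which lie between its fibres and bundles and around its surface, and they can arise there from fibro-adipogenic progenitors, the mesenchymal cells of the muscle interstitium. A marker gene read in whole muscle is therefore measured against RNA that comes mostly from fibres. In such bulk RNA, fewer fat cells and less of the RNA per fat cell cannot be told apart. The tissue carried the transcripts its label calls for. The mean log2 value over 10 muscle fibre genes, among them Acta1, Ckm and Myh4, ranged from 11.49 to 11.66 over the arrays of experiment 1. Over those of experiment 2 it ranged from 13.34 to 13.77.

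In experiment 2 Adipoq and Retn were the pair of members with the closest array-to-array pattern and Lep was the member least like Adipoq, so the 250 bases before the RefSeq transcription start of these 3 genes are given, 5′ to 3′ on the gene's strand. They come from RefSeq on the mouse build GRCm38.p6: Adipoq from chr16:23146286-23146535 (+ strand), Retn from chr8:3655520-3655769 (+ strand) and Lep from chr6:29059971-29060220 (+ strand). Capitals mark TTGCGCAA, the palindrome bound by C/EBP factors, which activate genes of fat cells as they mature.
Adipoq: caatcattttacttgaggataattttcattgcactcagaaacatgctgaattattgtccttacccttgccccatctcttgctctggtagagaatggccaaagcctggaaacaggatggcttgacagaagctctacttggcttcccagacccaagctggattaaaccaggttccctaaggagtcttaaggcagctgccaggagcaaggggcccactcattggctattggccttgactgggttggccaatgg
Retn: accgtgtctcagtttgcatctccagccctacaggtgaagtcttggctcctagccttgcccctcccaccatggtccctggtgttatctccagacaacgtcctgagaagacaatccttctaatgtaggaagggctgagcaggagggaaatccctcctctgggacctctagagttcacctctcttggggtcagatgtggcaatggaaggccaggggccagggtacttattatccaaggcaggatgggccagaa
Lep: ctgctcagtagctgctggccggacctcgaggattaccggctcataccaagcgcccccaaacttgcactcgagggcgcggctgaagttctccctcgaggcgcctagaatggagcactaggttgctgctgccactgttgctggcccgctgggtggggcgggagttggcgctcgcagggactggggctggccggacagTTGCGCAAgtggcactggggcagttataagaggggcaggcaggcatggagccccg
The palindrome stood in the Lep window at -55 to -48 from the start, and it is held by 0.164% of the 32851 mouse promoter windows of that length, counting both strands. Promoter windows were found for 8 of the 10 genes, 11 windows in all. AGGTCA, the half-site of nuclear receptors such as the one Pparg encodes, occurs in 14.02% of all windows on either strand and was found in 2 of the 3 Pparg windows, at -28 to -23 and at -9 to -4. The direct repeat of that half-site with 1 base between is held by 0.0335% of windows and by 0 of these 11. TATAAA, found in 12.4% of all windows, stood on the minus strand of the second Pparg window at -29 to -24, and in no other of the 11. A match describes these letters only.

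The values are log2 expression values. The median of an array was 4.39 to 4.52 in the first experiment but 6.06 to 6.27 in the follow-up, so values were set side by side only within an experiment. Levels of different members were not compared with each other because each is read by its own probes. Placing a gene against the median of all genes has the same limit. Differences were tested with limma across all 19938 genes, within each experiment and in a joint fit of both with the experiment as a term, and a gene is said to have risen or fallen where its Benjamini-Hochberg adjusted p was under 0.05. In experiment 2 the interquartile range of the array values was 2.798 to 2.873 in controls and 2.516 to 2.765 in Mstn-null muscle. Precision is limited by how few arrays each class has.

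Between the 4 classes most of these genes passed no test, whereas single arrays of 1 class differed several-fold. Adipoq, which encodes the hormone adiponectin, shows the pattern. In experiment 2 its log2 values in the 5 controls were 7.82, 8.10, 8.91, 9.66 and 8.08. After 1 dose they were 9.23, 8.88, 8.46, 7.87 and 7.90, and after 4 doses 8.41, 8.29, 7.83, 7.66 and 8.14. The 8 Mstn-null arrays ran from 6.58 over a median of 8.69 to 9.51. Every class overlapped every other, and the Mstn-null arrays alone spanned both the lowest value of the experiment and one close to its highest, a 7.62-fold range. The 4-dose arrays lay closest together, within a 1.67-fold range.

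**Figure D1:**
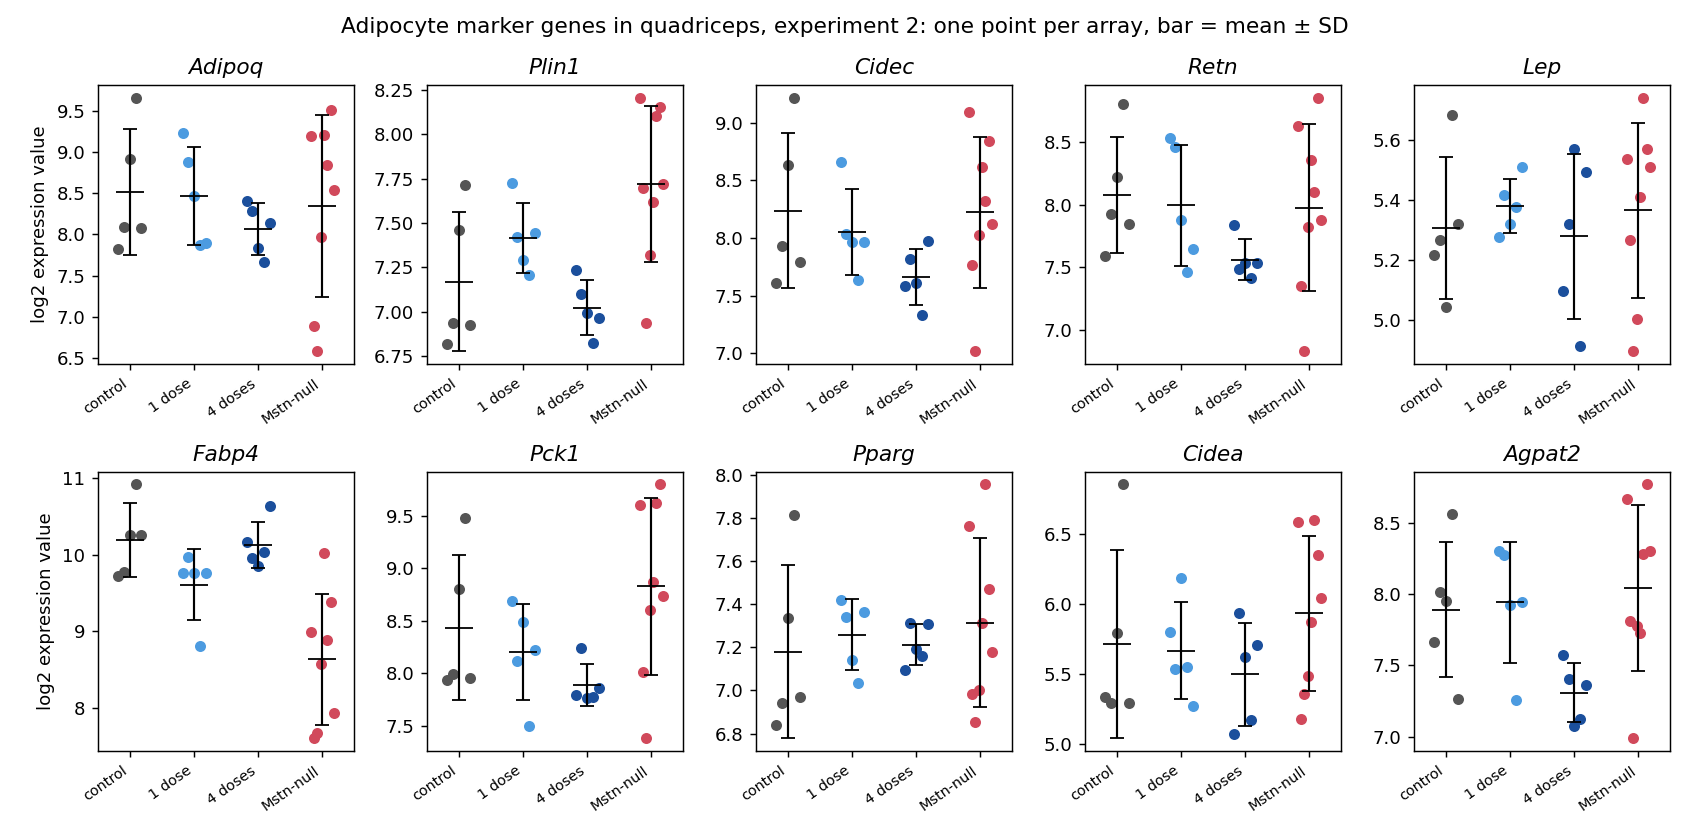
Log2 expression value of each of the 10 genes on each array of experiment 2 (vertical axis, a separate scale per gene) by class (horizontal axis), with 8 Mstn-null arrays and 5 of each other class; points are arrays and bars the mean ± SD. Fabp4 is lower in Mstn-null muscle, where the highest array (10.02) still reaches into the controls (9.73 to 10.92), and the classes overlap for every gene.

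In experiment 1 Adipoq read 6.73, 5.15 and 6.79 in controls and 4.90, 6.47 and 5.39 in Mstn-null muscle. After 1 dose it read 4.81, 7.56 and 5.28, and after 4 doses 5.11, 5.83 and 4.61. The classes overlapped here too, and 1 single-dose array stood 2.75 above the lowest of its class on the log2 scale, a 6.75-fold range.

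**Figure D2:**
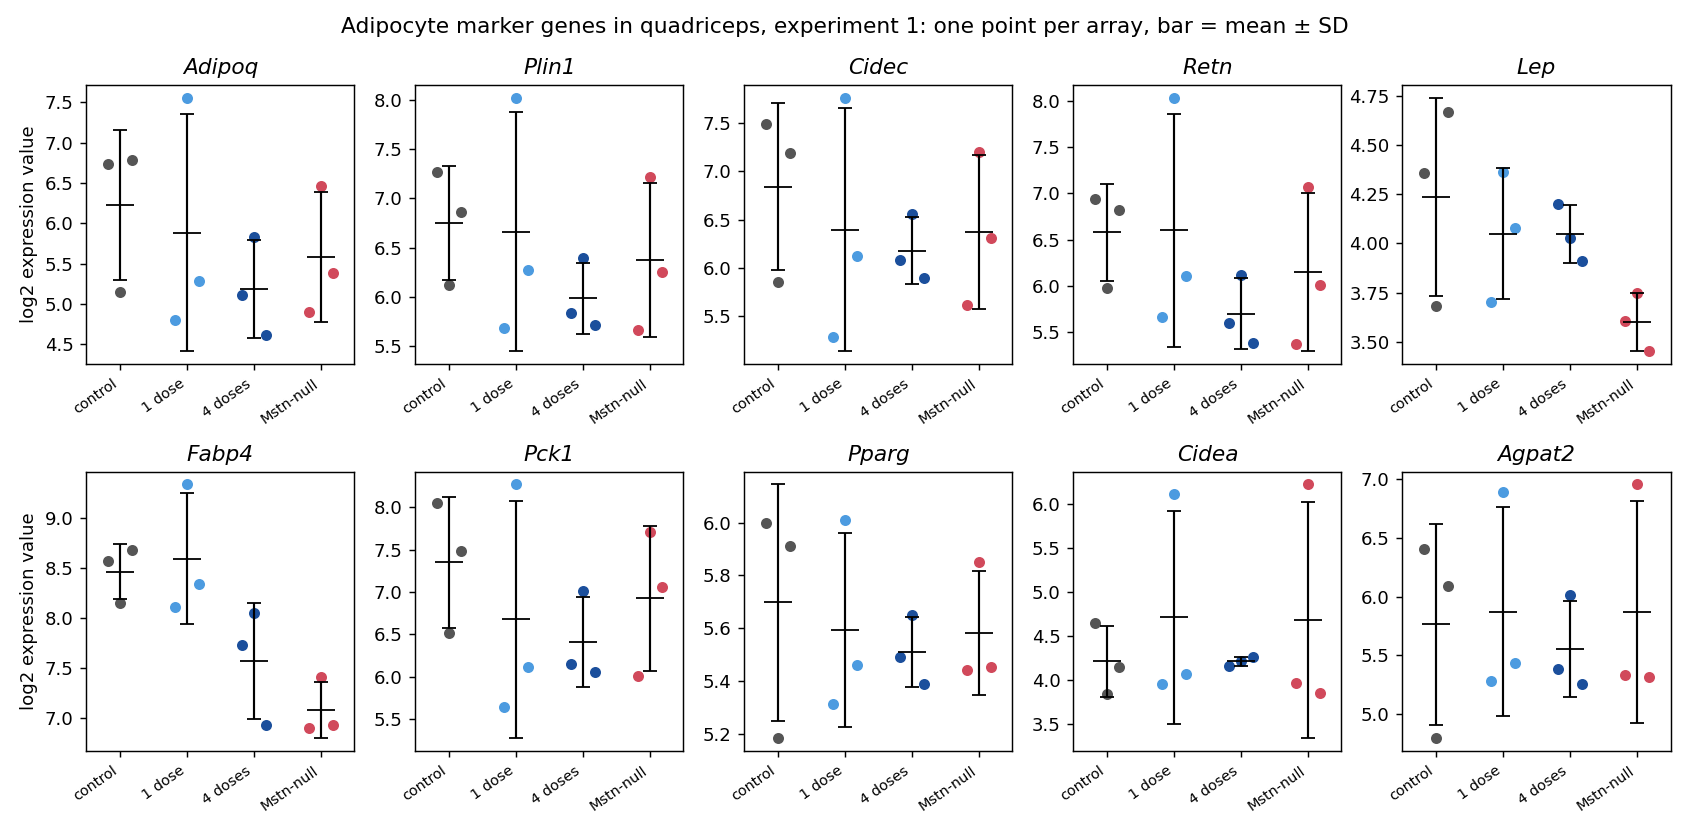
Log2 expression value of each of the 10 genes on each of the 12 arrays of experiment 1 (vertical axis, a separate scale per gene) by class (horizontal axis), with 3 arrays per class; points are arrays and bars the mean ± SD. In single-dose and Mstn-null muscle 1 array of 3 is the highest for all 10 genes, and in controls 1 array is the lowest for all 10.

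Of the other secreted factors Retn gave a like account, while Lep varied less between arrays of 1 class. Retn encodes resistin, a hormone made by fat cells in mice. Its values in experiment 2 were 7.59, 7.92, 8.22, 8.81 and 7.85 in controls and 7.84, 7.49, 7.53, 7.41 and 7.54 after 4 doses. After 1 dose they were 8.54, 8.46, 7.88, 7.46 and 7.64, and the Mstn-null arrays ran from 6.83 over a median of 7.99 to 8.86. Lep encodes leptin, the hormone that reports fat stores to the brain, and it was the flattest of the 10 in experiment 2, with group means between 5.28 and 5.38. In experiment 1 Lep read 4.36, 3.68 and 4.67 in controls and 3.61, 3.75 and 3.45 in Mstn-null muscle, a difference of -0.64 that missed the threshold (limma adjusted p = 0.140). Without control replicate 2, the lowest of the controls, it was -0.91 (limma adjusted p = 0.0362). The Lep values of experiment 1 lay below the median of all genes, 4.80, as did those of Cidea on most arrays.

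The proteins of the fat droplet are represented by Plin1, Cidec and Cidea. Plin1 encodes perilipin 1, which coats the droplet and controls access of lipases to it. In experiment 2 Plin1 read 6.82, 6.93, 7.46, 7.71 and 6.92 in controls, and 6.94 to 8.21 with a median of 7.71 in Mstn-null muscle. It read 7.72, 7.42, 7.29, 7.21 and 7.44 after 1 dose and 7.24, 7.10, 6.99, 6.82 and 6.97 after 4 doses. Mstn-null arrays were the highest as a class, but the lowest of them lay among the controls. Cidec and Cidea encode proteins that fuse droplets, Cidec in white fat and Cidea mostly in brown and beige fat. Cidec group means in experiment 2 ran from 7.66 after 4 doses to 8.24 in controls, with within-group SDs up to 0.67. Cidea group means ran from 5.50 after 4 doses to 5.93 in Mstn-null muscle.

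The enzymes and the regulator follow. Pck1 encodes the cytosolic phosphoenolpyruvate carboxykinase, which in fat cells makes the glycerol backbone of triglyceride. In experiment 2 its values were 7.94, 8.00, 8.80, 9.48 and 7.96 in controls and 7.79, 8.24, 7.77, 7.78 and 7.86 after 4 doses. They were 8.69, 8.12, 8.49, 7.50 and 8.22 after 1 dose, and 7.38 to 9.80 with a median of 8.80 in Mstn-null muscle. All 5 of the 4-dose arrays lay below 6 of the 8 Mstn-null arrays. Agpat2, an acyltransferase of triglyceride synthesis, read 7.57, 7.41, 7.07, 7.13 and 7.36 after 4 doses against 7.67, 8.02, 7.95, 8.56 and 7.27 in controls, 8.31, 8.28, 7.93, 7.26 and 7.94 after 1 dose, and 6.99 to 8.77 in Mstn-null muscle. Pparg, the nuclear receptor that drives fat cell formation, had group means of 7.18 to 7.31 in experiment 2 and of 5.51 to 5.70 in experiment 1.

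Fabp4 departed from the other 9. It encodes the fatty acid carrier of the fat cell cytoplasm, also called aP2, and is known to be made by capillary endothelium as well. In experiment 2 its log2 values in controls were 9.73, 9.78, 10.26, 10.92 and 10.25. In Mstn-null muscle they were 8.99, 7.60, 7.67, 8.57, 10.02, 8.89, 9.38 and 7.93. Of these 8 arrays 1 lay above the lowest control and 7 lay below all 5 controls. After 4 doses Fabp4 read 10.17, 9.95, 9.85, 10.03 and 10.63, and after 1 dose 9.75, 9.97, 9.76, 8.80 and 9.75. All 5 of the 4-dose arrays and 4 of the 5 single-dose arrays lay within the range of the controls. In experiment 1 it read 8.57, 8.15 and 8.68 in controls and 6.90, 7.40 and 6.93 in Mstn-null muscle, with no overlap. There it read 8.10, 9.34 and 8.34 after 1 dose and 7.73, 8.04 and 6.93 after 4 doses.

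In Mstn-null against control muscle Fabp4 fell in both experiments. The difference was -1.56 ± 0.31 (SE) in experiment 2, a 2.94-fold lower level (limma adjusted p = 0.000542), and -1.39 ± 0.31 in experiment 1 (limma adjusted p = 0.0378). The joint fit gave -1.51 ± 0.26 (limma adjusted p = 7.15e-05), and the change in experiment 2 minus that in experiment 1 was -0.17 (95% interval -1.24 to 0.90). It was the 1 member called in experiment 1, where 2.39% of all genes were called, and the 1 called in the joint fit, where 41.8% were. In experiment 2 Plin1 rose by 0.55 ± 0.18 (limma adjusted p = 0.0149) beside the fall of Fabp4. So 2 of 10 members were called there, against 43.9% of all genes. The members' within-group SDs had a median of 0.513 in experiment 2 against 0.174 over all genes, so these shares were reached at unlike precision. The other 8 members had differences between -0.17 (Adipoq, 95% interval -1.004 to 0.66) and 0.39 (Pck1, -0.27 to 1.05) in experiment 2. The median over the 10 was 0.10 there and 0.11 over all genes.

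Some of these calls changed with the scaling of the arrays. With the array interquartile range as a covariate Fabp4 was -1.33 in experiment 2 (limma adjusted p = 0.105), -0.89 in experiment 1 (adjusted p = 0.131) and -1.03 in the joint fit (adjusted p = 0.0734), and was no longer called. That range did not overlap between Mstn-null and control arrays (2.516 to 2.765 against 2.798 to 2.873 in experiment 2, and 2.742 to 2.835 against 2.874 to 3.026 in experiment 1), so the covariate and the class cannot be told apart in this contrast. Plin1 in experiment 2 lost its call once each array was centred on its median (0.42, adjusted p = 0.0623), with that covariate (0.34, adjusted p = 0.478) and without control replicate 1 (0.46, adjusted p = 0.0539), and in experiment 1 its difference was -0.37. Leaving out any 1 array kept Fabp4 below control by 1.40 to 1.64 in the joint fit, called 35 of 35 times. In experiment 1 the call held without 4 of the 12 arrays. It was lost without any 1 of the 3 controls or 3 Mstn-null arrays, without 4-dose replicate 1 and without single-dose replicate 3, with differences of -1.55 to -1.28 and adjusted p between 0.0534 and 0.156.

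Of 6 measured markers of endothelium 3 fell in Mstn-null muscle in the joint fit, a share close to the 41.8% of all genes called there: Pecam1 by a log2 difference of -0.59, Emcn of -0.68 and Flt1 of -0.32 (limma adjusted p = 0.000246, 0.00533 and 0.009), while Kdr (-0.31), Tek (-0.22) and Cdh5 (-0.19) did not pass. The median of the 6 was -0.31 against 0.09 over all genes. The mean log2 value of the 6 per array was 8.47 to 8.58 in controls and 7.60 to 8.56 in Mstn-null muscle of experiment 2, and 6.04 to 6.75 and 5.98 to 6.24 in experiment 1. After 4 doses 1 of the 6 fell (Flt1, -0.40). Their part in the fall of Fabp4 was not tested.

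**Figure D3:**
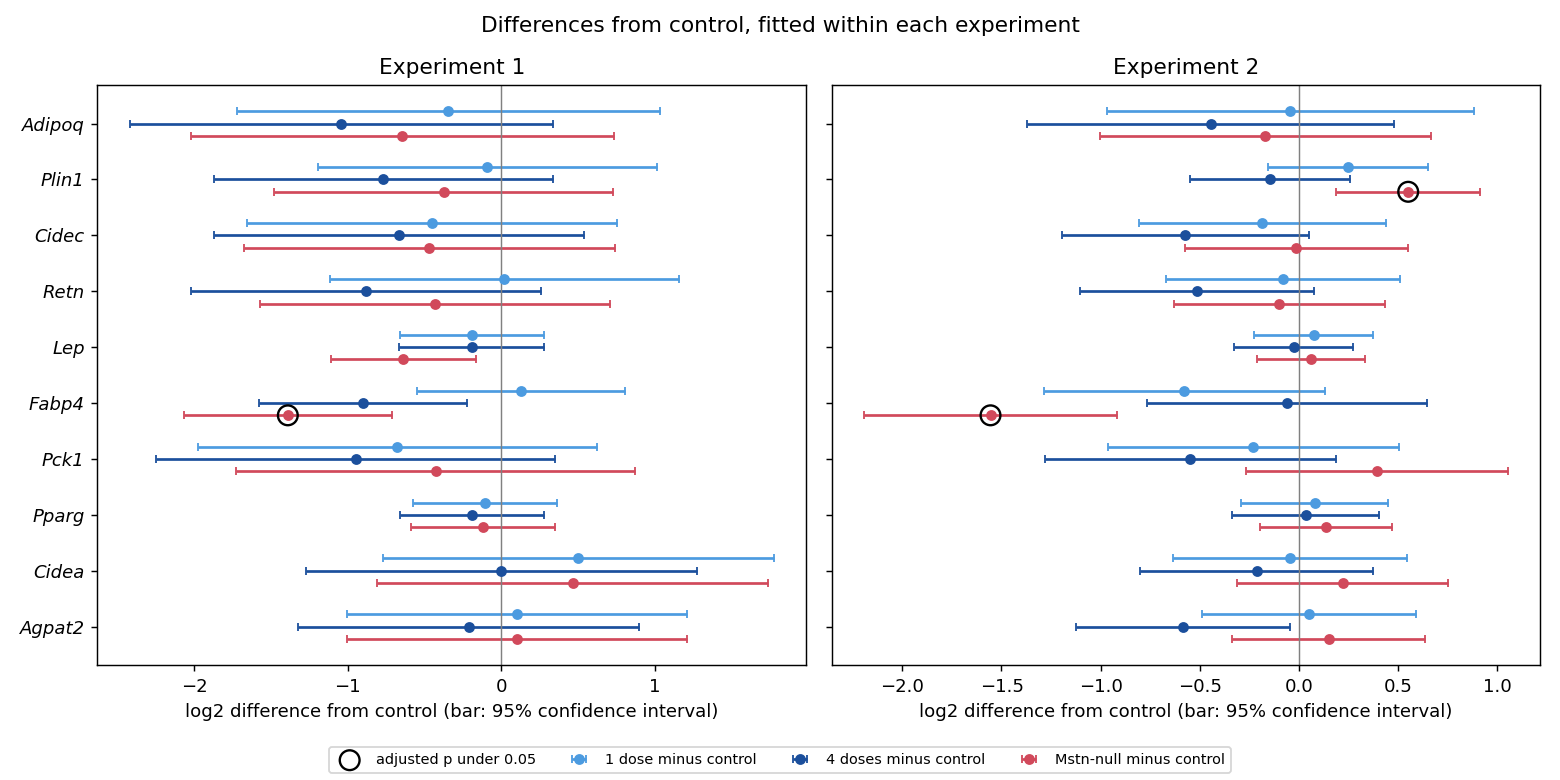
Log2 difference from control (horizontal axis) of each of the 10 genes (vertical axis) after 1 dose, after 4 doses and in Mstn-null muscle, with 95% confidence intervals from limma within experiment 1 (left, 3 arrays per class) and experiment 2 (right, 5 or 8 arrays). Circles mark adjusted p under 0.05, reached by Fabp4 in Mstn-null muscle in both experiments (-1.39 and -1.56) and by Plin1 in experiment 2 (0.55).

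A single dose of ActRIIB-Fc changed none of the 10 past the threshold in either experiment or in the joint fit, where 0.0251%, 1.23% and 1.11% of all genes were called. In the joint fit the differences ran from -0.40 (Pck1, 95% interval -1.07 to 0.28) to 0.16 (Cidea, -0.43 to 0.75), 4 above 0 and 6 below, and 0 of the 10 had an unadjusted p under 0.05. Adipoq was at -0.16, Plin1 at 0.12 and Fabp4 at -0.31. The 95% interval of Adipoq ran from -0.94 to 0.62, so differences of those sizes in either direction are compatible with these arrays.

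After 4 doses all 10 genes were estimated below control in the joint fit, but none passed the threshold. Retn was at -0.65 (95% interval -1.21 to -0.09), Pck1 at -0.70 (-1.37 to -0.02) and Cidec at -0.61 (-1.20 to -0.02), and these 3 had an unadjusted p under 0.05, with limma adjusted p of 0.247, 0.322 and 0.324. Adipoq was at -0.67 (-1.45 to 0.11), Agpat2 at -0.44 and Plin1 at -0.38, while Pparg (-0.05) and Lep (-0.09) lay near 0. The median of the 10 was -0.41 against 0.02 over all genes. The genes called were 0 of 10 in each fit, against 0.266% of all genes in experiment 1, 2.62% in experiment 2 and 3.14% jointly. In experiment 1 the Fabp4 values of the 4-dose class (6.93 to 8.04) did not overlap those of controls (8.15 to 8.68), with a difference of -0.90 (limma adjusted p = 0.296), but in experiment 2 the difference was -0.06. The 10 genes shared their array-to-array deviations, so their common direction is not 10 separate observations.

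Between 4 doses and 1 dose no member was called, against 0.241%, 0.211% and 0.321% of all genes in experiment 1, experiment 2 and the joint fit. The joint differences were all below 0, from -0.61 (Retn, 95% interval -1.17 to -0.05) to -0.06 (Pparg, -0.35 to 0.23), and the median was -0.31. In experiment 1 the Fabp4 values of the dose classes did not overlap, with 8.10 to 9.34 after 1 dose and 6.93 to 8.04 after 4, a difference of -1.03 (limma adjusted p = 0.237), and in experiment 2 the estimate had the opposite sign, 0.52 (limma adjusted p = 0.889).

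Whether a class's difference from control itself changed between the experiments was tested for all genes as well. It was called for 0 of the 10 members in Mstn-null muscle, after 1 dose and after 4 doses, against 1.68%, 0.0% and 0.00502% of all genes. The smallest p among the 30 tests was that of Lep in Mstn-null muscle, whose difference was higher by 0.70 in experiment 2 (95% interval 0.18 to 1.21, limma adjusted p = 0.112).

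Set against Mstn-null muscle, Fabp4 was higher in both dosed classes. After 1 dose the joint difference was 1.19 ± 0.26 (limma adjusted p = 0.00202), with 1.52 in experiment 1 (adjusted p = 0.0264) and 0.98 in experiment 2 (adjusted p = 0.0385). It was the 1 member called in each, against 16.8%, 2.01% and 13.1% of all genes. The call of experiment 2 was lost without any 1 of Mstn-null replicates 2, 3 and 8 or single-dose replicates 1, 2, 3 and 5 (0.83 to 0.94, adjusted p 0.0573 to 0.101), and that of experiment 1 without any 1 of the 3 Mstn-null arrays or single-dose replicates 2 and 3 (1.14 to 1.68, adjusted p 0.055 to 0.108).

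After 4 doses against Mstn-null muscle Fabp4 was higher by 1.13 ± 0.26 in the joint fit (limma adjusted p = 0.00368) and by 1.49 in experiment 2 (adjusted p = 0.00131), while in experiment 1 it was 0.49 (adjusted p = 1.0). Plin1, Agpat2 and Pck1 went the other way in experiment 2, while Cidec (-0.56, adjusted p = 0.117) and Cidea (-0.43, adjusted p = 0.197) did not pass. Plin1 was lower by -0.70 ± 0.18 (adjusted p = 0.00563), Agpat2 by -0.73 ± 0.24 (adjusted p = 0.0235) and Pck1 by -0.94 ± 0.32 (adjusted p = 0.0309). That made 4 of 10 members called against 28.7% of all genes. The joint fit called Fabp4 and Plin1 (-0.63, adjusted p = 0.0459), 2 of 10 against 20.2%, and experiment 1 called none, against 0.015%. The joint Plin1 call held in 20 of 35 fits that left out 1 array (-0.75 to -0.56, adjusted p 0.0133 to 0.081). Of the 15 arrays whose absence ended it, 7 were 4-dose arrays (replicates 1 and 3 of experiment 1 and all 5 of experiment 2), 6 were Mstn-null arrays (replicate 2 of experiment 1 and replicates 1, 2, 6, 7 and 8 of experiment 2), and the others were control replicate 3 and single-dose replicate 2 of experiment 2. It was also lost with arrays centred (-0.58, adjusted p = 0.0671), the trend and robust variance prior (adjusted p = 0.0588), all rows tested (adjusted p = 0.067), the interquartile range as a covariate (-0.67, adjusted p = 0.186) and the replicate block (-0.48, adjusted p = 0.204). In experiment 2 the Agpat2 call was lost without 4-dose replicate 4 (-0.69, adjusted p = 0.0572). The Pck1 call there was lost without any 1 of 4-dose replicates 1, 4 and 5 or Mstn-null replicates 1, 6 and 7 (-0.93 to -0.80, adjusted p 0.0576 to 0.0709). It was also lost with all rows tested (-0.94, adjusted p = 0.0516). With the interquartile range as a covariate none of the 4 calls of experiment 2 held. The replicate block ended those of Agpat2 (-0.49, adjusted p = 0.15), Pck1 (-0.61, adjusted p = 0.217) and Plin1 (-0.53, adjusted p = 0.0599).

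The spread between arrays of 1 class was the larger feature of these genes. The SD of array deviations from their group means had a median of 0.816 over the 10 genes in experiment 1 against 0.165 over all genes, and of 0.513 against 0.174 in experiment 2. All 10 lay above the median of all genes in both, and 8 and 7 of them lay above its 95th percentile (0.340 and 0.349). The Adipoq SD was 1.01 in experiment 1, where 7 genes of 19938 had a larger one, and 0.814 in experiment 2, where 14 had. Lep was among the steadiest members, with 0.321 and 0.247. The share of variance that lay between classes had a median of 17.1% over the members in experiment 1 and 15.6% in experiment 2, beside 28.3% and 31.8% over all genes. Fabp4 was at 72.1% and 58.8%, Lep in experiment 1 at 44.5% and Plin1 in experiment 2 at 44.6%. Agpat2 (30.2%) and Pck1 (27.5%) came next in experiment 2. Part of such a share arises without any class difference, and more of it with 12 arrays than with 23. The shares of the experiments are therefore not on one scale. The members' SDs are set beside all genes as a description, since these genes were named with earlier results of these data known.

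In several classes 1 array was the highest or the lowest for most members. In experiment 2 control replicate 4 was the highest control for 10 of 10 genes, Mstn-null replicate 3 the lowest of its class for 8 and single-dose replicate 4 the lowest of its class for 8. In experiment 1 single-dose replicate 2 and Mstn-null replicate 2 were the highest of their classes for all 10, and control replicate 2 and single-dose replicate 1 the lowest for all 10. This did not hold throughout: in the 4-dose class of experiment 2 no array was the highest for more than 4 genes or the lowest for more than 5, and in its Mstn-null class no array was the highest for more than 4. The mean of the 10 log2 values ran from 5.28 to 7.24 from a Mstn-null to a single-dose array of experiment 1, and from 6.65 on a Mstn-null array to 8.47 on a control in experiment 2.

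Across arrays the deviations of member pairs from their group means had a median Pearson r of 0.890 over 45 pairs in experiment 1 (0.526 to 0.993, 12 arrays) and of 0.770 in experiment 2 (0.419 to 0.958, 23 arrays). These are correlations of genes read on the same arrays, so they share array, RNA extract and normalisation. With Adipoq in experiment 2, Retn reached r = 0.958 and Spearman rho = 0.971 (permutation p = 1e-05 for each, the smallest that 100000 permutations within groups can give, adjusted p = 6e-05 and 9e-05 over 18 relations), and r = 0.945 without the 2 arrays farthest from the median of Adipoq. Cidec had r = 0.911, Pck1 0.901, Plin1 0.811, Agpat2 0.801, Fabp4 0.801, Pparg 0.769 and Cidea 0.756. For Fabp4 rho was 0.806 (permutation p = 4e-05) and r fell to 0.704 without those 2 arrays. Lep had r = 0.538 (permutation p = 0.022, adjusted p = 0.0233) and rho = 0.484 (permutation p = 0.0241), with r = 0.396 without the same 2 arrays. The r with Adipoq in experiment 1 ran from 0.776 (Lep) to 0.977 (Cidec), and the 9 adjusted permutation p lay between 0.0018 and 0.0267.

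**Figure D4:**
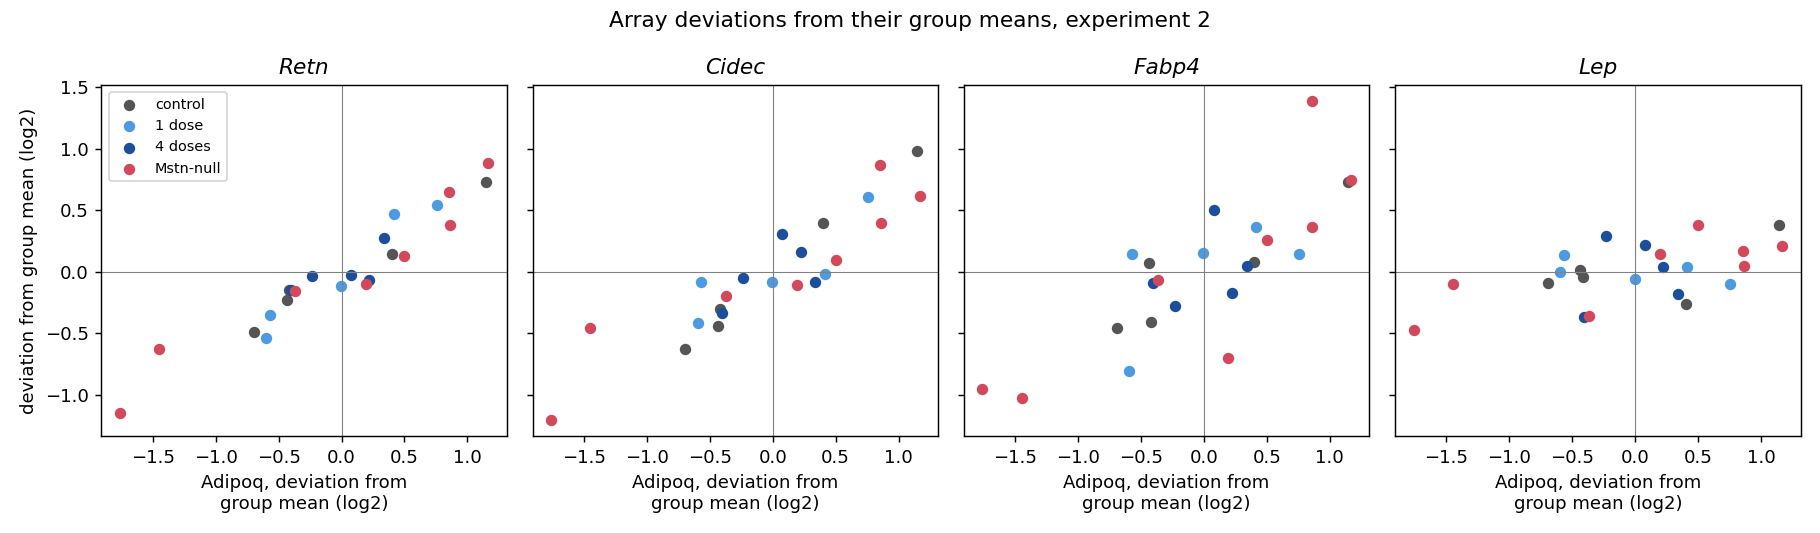
Deviation of Retn, Cidec, Fabp4 and Lep from their group means (vertical axes, log2) against that of Adipoq (horizontal axes, log2) on the 23 arrays of experiment 2, coloured by class. Retn follows Adipoq closely (r = 0.958), Fabp4 less so (0.801) and Lep least (0.538), and arrays of all 4 classes lie along the same line for Retn.

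The deviations of the 10 members, each scaled to an SD of 1, were averaged per array, and all other genes were ranked by the Pearson r of their own deviations with that mean over the 23 arrays of experiment 2. The 10 most alike were Car5b (r = 0.954), Prkar2b (0.932), Acvr1c (0.922), Tmem45b (0.913), Slc36a2 (0.902), Cdo1 (0.898), Lgals12 (0.896), Lipe (0.894), Slc1a5 (0.891) and Acp5 (0.883). Lipe encodes hormone-sensitive lipase and Acvr1c the activin receptor ALK7, both known from fat. The same 10 genes had r between 0.911 and 0.991 in experiment 1. Of 19928 other genes, 29 had r over 0.8 in experiment 2 and 290 in experiment 1, 28 of them in both, and the median r over all was 0.04 and -0.04. None of these 10 was called against control in any class in the joint fit, with limma adjusted p of 0.0984 (Lipe after 4 doses) and above.

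The same measure of likeness to the members' mean was read for the marker lists over the 23 arrays of experiment 2, as a description. The median r was 0.809 for 6 fat cell surface and signalling genes, 0.583 for 10 secreted and structural genes, 0.507 for 13 genes of triglyceride and fatty acid synthesis and 0.239 for 6 markers of fibro-adipogenic progenitors. It was -0.28 for 10 muscle fibre genes, -0.12 for 10 slow fibre genes, -0.17 for the 6 endothelial markers and 0.335 for 6 macrophage markers. It was -0.08 for 9 fat cell transcription factors (-0.40 to 0.75), 0.276 for 8 genes of fat uptake and lipolysis, 0.420 for 7 brown fat markers and 0.06 for 4 receptors of fat cell hormones. Cebpa, a C/EBP factor of mature fat cells, had the highest r of the transcription factors, 0.754, and Adig, a small fat cell protein, the highest of the secreted and structural genes, 0.780. Agt (-0.17), Plin4 (-0.11) and Car3 (-0.10) of the latter list lay below 0. Several low medians did not recur in experiment 1. There they were 0.610 for transcription factors, 0.682 for fat uptake and lipolysis, 0.646 for macrophage, 0.466 for endothelial and 0.389 for slow fibre genes. Surface genes had 0.911, synthesis genes 0.864 and secreted and structural genes 0.709. The rest were 0.041 (muscle fibre), 0.330 (progenitors), 0.135 (brown fat) and 0.215 (receptors).

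On each array Fabp4 was also set against Adipoq by subtraction, a comparison chosen after the values were seen, and the mean difference of the classes was compared, not its size, which depends on the probes. In experiment 2 Fabp4 minus Adipoq was 1.67 ± 0.38 (SD, n = 5) in controls, 1.14 ± 0.49 after 1 dose, 2.06 ± 0.36 after 4 doses and 0.29 ± 0.59 (n = 8) in Mstn-null muscle. Mstn-null arrays (-0.60 to 1.09) did not overlap controls (1.26 to 2.18), a shift of -1.39 with an exact two-sided permutation p = 0.00155, the smallest possible for 8 against 5, and adjusted p = 0.042 over 54 tests. The shift from Mstn-null to 4 doses was 1.77 (exact permutation p = 0.00155, adjusted p = 0.042). With Adipoq as the reference Fabp4 was the 1 of 9 members with adjusted p under 0.05 in these comparisons. Single-dose arrays (0.53 to 1.85) overlapped the Mstn-null arrays, and between those classes no member had an adjusted p under 0.05. With Plin1 as the reference Fabp4 shifted by -2.11 from controls to Mstn-null muscle and by 2.19 from there to 4 doses (exact permutation p = 0.00155 each, unadjusted), but others shifted as well. Retn (-0.65, exact permutation p = 0.00155) and Pparg (-0.42, p = 0.00311) did so from controls to Mstn-null muscle. So did Cidec (-0.56, p = 0.0155), Lep (-0.49, p = 0.0171) and Agpat2 (-0.40, p = 0.0233), all by exact permutation and unadjusted. Lep (0.61) and Pparg (0.59) did so from Mstn-null muscle to 4 doses (exact permutation p = 0.00311 each, unadjusted). In experiment 1 the means were 2.24 ± 0.66 in controls, 2.71 ± 0.82 after 1 dose, 2.38 ± 0.21 after 4 doses and 1.49 ± 0.53 in Mstn-null muscle (SD, n = 3 each), where Mstn-null and control arrays overlapped and an exact permutation test of 3 against 3 cannot go below p = 0.1.

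**Figure D5:**
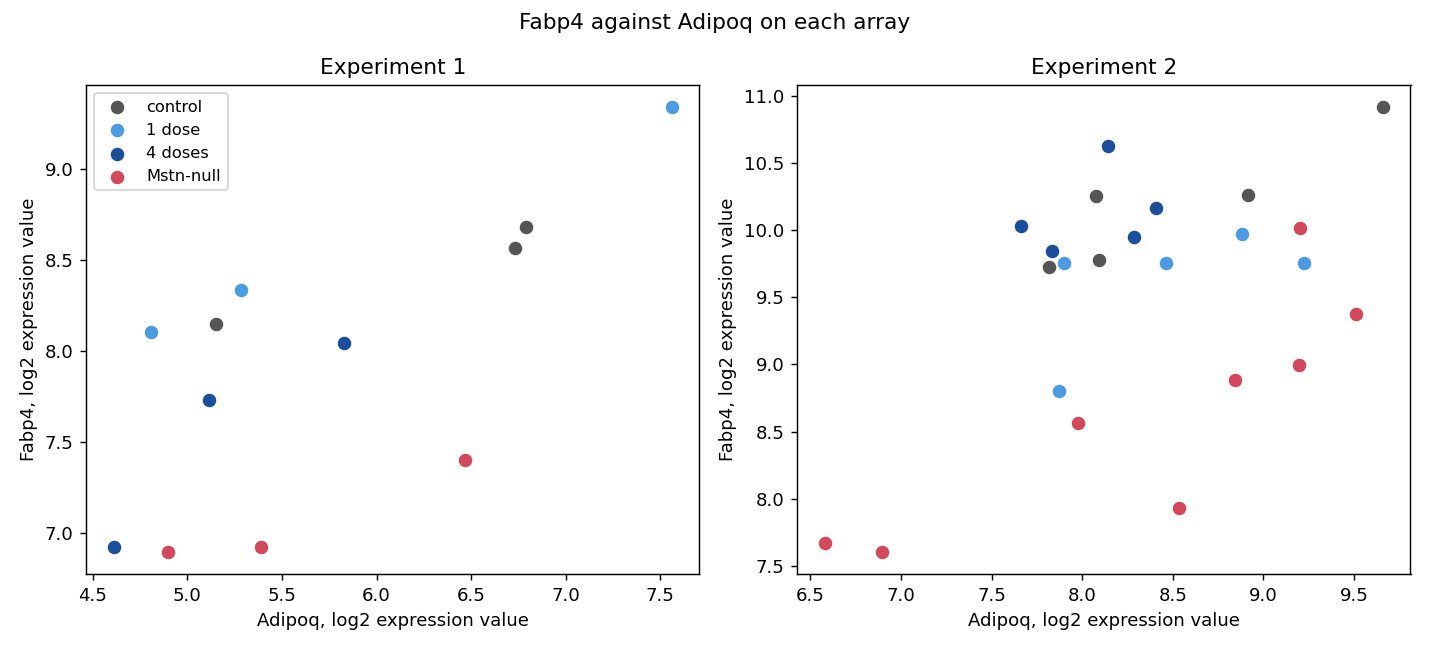
Log2 value of Fabp4 (vertical axis) against that of Adipoq (horizontal axis) on each array of experiment 1 (left, 12 arrays) and experiment 2 (right, 23 arrays), coloured by class. In experiment 2 Fabp4 minus Adipoq has a mean of 0.29 in Mstn-null arrays against 1.67 in controls. The Mstn-null range (-0.60 to 1.09) lies below that of controls (1.26 to 2.18) but overlaps that of single-dose arrays (0.53 to 1.85).

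Other genes of fat metabolism were read in the joint fit beside the members, from lists drawn up with results of these data known. In that fit 41.8% of all genes were called in Mstn-null muscle, 1.11% after 1 dose and 3.14% after 4 doses. Of 8 measured genes of fat uptake and lipolysis 5 fell and 0 rose in Mstn-null muscle, among them Lpl, the lipoprotein lipase (-1.35, limma adjusted p = 1.993e-07), Cd36, a fatty acid transporter (-1.13, adjusted p = 3.371e-05) and Gpihbp1, which carries lipoprotein lipase across capillary endothelium (-0.52, adjusted p = 0.000171). These 3 are also made by muscle fibres or endothelium, and the list's median was -0.44 against 0.09 over all genes. After 4 doses 3 fell: Lpl (-0.86, adjusted p = 0.00115), Pnpla2, the adipose triglyceride lipase (-0.53, adjusted p = 0.00515) and Slc2a4, the insulin-responsive glucose carrier (-0.43, adjusted p = 0.0145), with a median of -0.47. After 1 dose 0 of the 8 were called (median -0.15).

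Of 13 genes of triglyceride and fatty acid synthesis 0 were called in Mstn-null muscle (median 0.02) and 0 after 1 dose (0.12). After 4 doses 2 fell, Dgat2, the last acyltransferase of triglyceride synthesis (-0.83, limma adjusted p = 0.0195) and Lpin1, a phosphatidate phosphatase (-0.41, adjusted p = 0.0206), with a median of -0.24. Of 10 other secreted and structural genes 1 rose and 2 fell in Mstn-null muscle: Agt, which encodes angiotensinogen (0.56), Plin4, a droplet coat protein that muscle also makes (-0.46) and Car3, a carbonic anhydrase of fat and slow fibres (-0.45). Plin4 also fell after 1 dose (-0.48, adjusted p = 0.0154) and after 4 doses (-0.66, adjusted p = 0.000182), and Agt rose after 4 doses (0.57, adjusted p = 0.00205). The medians of that list were -0.06 in Mstn-null muscle, 0.07 after 1 dose and -0.05 after 4 doses.

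Of 9 fat cell transcription factors Srebf1 rose (0.41) and Klf15 (-0.26) and Cebpb (-0.29) fell in Mstn-null muscle, Cebpb fell after 1 dose (-0.44, limma adjusted p = 0.0314) and Klf15 after 4 doses (-0.45, adjusted p = 0.0034), with medians of 0.06, -0.11 and -0.24. Of 6 surface and signalling genes Klb, the co-receptor of FGF21, rose (0.44) and Npr3, the clearance receptor of natriuretic peptides, fell (-0.45) in Mstn-null muscle, and 0 were called after either dosing. Of the 4 receptors of fat cell hormones Cdh13, a binding protein of adiponectin, rose in Mstn-null muscle (0.22, adjusted p = 0.0352), and 0 were called after either dosing. Of 6 markers of fibro-adipogenic progenitors Cd34 rose after 4 doses (0.38, adjusted p = 0.0482), and 0 were called in the other classes. Of 6 macrophage markers 3 rose in Mstn-null muscle and 4 after 4 doses, among them Cd68 (0.36 and 0.68) and Adgre1 (0.37 and 0.56). Of 10 muscle fibre genes 1 rose and 2 fell in Mstn-null muscle and 1 rose after 4 doses. Of 10 slow fibre genes 10 fell in Mstn-null muscle and 9 after 4 doses. Beside the 41.8% of all genes called in Mstn-null muscle stood 3 of 9 transcription factors, 2 of 6 surface genes and 1 of 4 receptors. The muscle fibre genes had 3 of 10 and the macrophage markers 3 of 6. Slow fibre genes had 10 of 10, progenitor markers 0 of 6 and the synthesis genes 0 of 13. Whether the shares of such short lists differ from that of all genes was not tested. The part of these fibre and macrophage changes in the members' values was not tested.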

How the data were processed

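The values are log2 expression values of 35 arrays as deposited by the authors. The submitters' processing notes list RMA, limma 3.4.4 and R 2.11.1, with no statement of what each was used for. The log base was inferred from a highest value of 14.7. Joint or separate normalisation of the experiments, and the genome build behind the probes, are not given in the sources used here. Exactly 1 gene symbol was annotated to 21789 of 35556 rows, several to 1621 and none to 12146, and the latter kinds were left out. A gene with several rows (999 genes) was read from its brightest row on average, giving 19938 genes without any intensity filter.

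Groups came from the labels. Comparisons were fitted across all genes with limma 3.58.1 in R 4.3.3 (lmFit, eBayes, two-sided, Benjamini-Hochberg threshold 0.05) within each experiment, jointly with experiment as a term, and as a change between experiments. Within-array differences were tested with exact permutation tests, and correlations of deviations from group means with 100000 permutations within groups (Python 3.11.15, scipy 1.17.1). The script was tested on simulated data.

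Alternatives were quantile normalisation, centring, the interquartile range as a covariate, array weights, another variance prior, all rows tested, a replicate block and leaving out each array. Dim genes were also left out, and the row with the lowest mean was used in place of the brightest. Same-numbered replicates of different classes were not paired: the labels call them separate biological replicates, and the correlation of their deviations had a median of 0.02 over 18 pairs in experiment 1 and -0.003 over 30 pairs in experiment 2. The members and lists were chosen with earlier results of these data known. Named genes are the members, the 10 genes most like the members' mean deviation in experiment 2, and for each list up to 3 genes with the smallest p. Ucp1, Adig, Cebpa and the within-array differences were chosen after values were seen.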

Additional observations from a re-analysis of the deposited data

Results flagged for a closer look

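Of 40 groups of 5 or 8 arrays tested for 1 value far from the rest, which chance alone flags in about 1 of 20, 2 were flagged. Fabp4 after 1 dose in experiment 2 read 8.80 on replicate 4, with the nearest other array of its class at 9.75, a gap of 0.817 of the group's range against a critical value of 0.71. The same array was the lowest of its class for 8 of the 10 members. Pck1 after 4 doses in experiment 2 read 8.24 on replicate 2, with the nearest other array at 7.86, a gap of 0.802 of the range.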

How the results depend on the processing

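Values are numbers of the 10 members called. With the array interquartile range as a covariate all 8 counts that were above 0 became 0: Mstn-null against control in experiment 1, experiment 2 and jointly, 1 dose against Mstn-null in all 3 fits, and 4 doses against Mstn-null in experiment 2 and jointly. In experiment 1, Mstn-null against control gave 0 with arrays centred or with all rows tested and 2 with array weights, and 1 dose against Mstn-null gave 0 with all rows tested. In experiment 2, Mstn-null against control gave 1 with arrays centred, and 1 dose against Mstn-null gave 0 with quantile normalisation, with the trend and robust variance prior and with all rows tested. In the joint fit 1 dose against Mstn-null gave 2 with array weights, and 4 doses against Mstn-null gave 4 with quantile normalisation and 1 with arrays centred, the other variance prior or all rows tested. For 4 doses against Mstn-null Pck1 was called jointly with dim genes left out (-0.82, limma adjusted p = 0.0426) and with array weights (-0.82, limma adjusted p = 0.0445). The change between experiments gave 1 of 30 tests with array weights. The replicate block, on numbers that do not pair the mice (correlations over 0.1 in 7 of 18 and 11 of 30 pairs), gave 1 for Mstn-null against control in experiment 2, 0 for 1 dose and 1 for 4 doses against Mstn-null there, and 1 for the latter jointly. Leaving out each array gave 0 to 1 for Mstn-null against control and for 1 dose against Mstn-null in experiment 1, 1 to 2, 0 to 1 and 2 to 5 for Mstn-null against control, 1 dose and 4 doses against Mstn-null in experiment 2, and 1 to 4 for the last jointly. The count of 5 came without Mstn-null replicate 3 in experiment 2, where Cidec was also called. With Plin1 in place of Adipoq as the within-array reference in experiment 2, differences turned sign for Cidec (-0.56), Retn (-0.65), Lep (-0.49), Pck1 (-0.16), Pparg (-0.42) and Agpat2 (-0.40) in Mstn-null against control, for Pparg (-0.17) in 1 dose against control, and for Lep (0.32) and Pparg (0.25) in 1 dose against Mstn-null, whereas Fabp4 kept its sign (-2.11 in Mstn-null against control). The causes were not tested. Signal over background was not analysed here, and Lep and Cidea lie low on the arrays.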

Other observations

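Ucp1, the uncoupling protein of brown and beige fat cells, was looked at beside Cidea after its values were seen. In experiment 2 control replicate 4 had the highest values of both genes, 6.80 for Ucp1 and 6.85 for Cidea, followed by Mstn-null replicate 6 with 6.20 and 6.60 and Mstn-null replicate 1 with 5.63 and 6.58. The other 20 arrays had Ucp1 values of 4.69 to 5.56. In experiment 1 Mstn-null replicate 2 had 5.52 for Ucp1 and 6.22 for Cidea. Single-dose replicate 2 had a like Cidea value, 6.11, with Ucp1 at 3.59, just above the remaining arrays (2.94 to 3.53). Over the 23 arrays of experiment 2 the deviations of both genes from their group means had r = 0.842 (permutation p = 7e-05, adjusted p = 0.00014 over both experiments) and Spearman rho = 0.813 (permutation p = 4e-05, adjusted p = 8e-05), and r = 0.739 without the 2 arrays farthest from the median. Over the 12 arrays of experiment 1 r was 0.844 (permutation p = 0.0525) and rho 0.804 (permutation p = 0.0408), with r = 0.789 without the 2 farthest. On most arrays Ucp1 lay below the median of all genes, 4.80 in experiment 1 and 6.45 in experiment 2. Of 7 brown fat markers Prdm16 (0.31) and Zic1 (0.17) rose and Cox8b, a subunit of cytochrome oxidase that muscle also makes, fell (-0.82) in Mstn-null muscle in the joint fit with limma, and 0 were called after 1 dose or 4 doses. The 3 of 7 called in Mstn-null muscle are a share close to the 41.8% of all genes called there. The medians of the list were 0.12, -0.02 and -0.02.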
